A study of Anas platyrhynchos and Gallus gallus and Anas rubripes with 21 samples.

Results

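The cell cycle genes described here are 34 genes for DNA replication, nucleotide supply, the cyclins and their kinases, and mitosis, chosen as a list of symbols and looked up by consensus gene symbol in the deposited table of RNA levels. Of the 34, 32 had a row among the 20451 genes of the table, and MCM7 and AURKB were not analysed here. RNA was sequenced from the trigeminal ganglia, the sensory ganglia that supply the bill and face, of 21 untreated embryos, with 3 birds in each of 7 species. The species were chicken (Gallus gallus, embryonic days 19 to 21), black duck (Anas rubripes, days 21 to 22), Pekin duck (Anas platyrhynchos, days 25 to 26), lesser scaup (Aythya affinis, days 25 to 26), harlequin duck (Histrionicus histrionicus, days 28 to 29), wood duck (Aix sponsa, days 28 to 31) and ruddy duck (Oxyura jamaicensis, days 30 to 31). All embryos were taken at the same event shortly before hatching, after they had pierced the membrane inside the shell, so a later embryonic day is a longer labelled incubation and not a later stage. How the days were counted is not given in the sources used here, and black duck carries earlier days than Pekin duck, of the same genus, for the same event. Each value is a level in RPKM, a read count scaled to the length of the gene and to the number of mapped reads, and is the authors' mean over the 3 birds of a species. The spread between birds is not in the table, so no difference between species could be set against it. Species are named below in the order of their embryonic day.

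Cells copy their DNA once per division. Origin recognition proteins, CDC6 and CDT1 load the MCM helicase onto DNA, CDC45 helps to switch it on, and the ring-shaped clamp PCNA holds the polymerases on the template. Cyclins E and A drive the copying and cyclin B with the kinase CDK1 drives entry into mitosis, where PLK1, AURKA and the spindle checkpoint proteins TTK, BUB1 and BUB1B oversee the separation of the chromosomes. Late in development the neurons of a sensory ganglion no longer divide, while its satellite glia, Schwann cells, fibroblasts and vessel cells can. In whole ganglia, fewer dividing cells and less RNA per dividing cell cannot be told apart.

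The markers of the labelled tissue were high in every species. The 10 neuron markers with a row summed to between 3906 and 4991 RPKM, and the 9 markers of satellite glia and Schwann cells to between 2379 and 2674 RPKM in all species but wood duck, where they summed to 1374 RPKM. Fibroblast markers (6 genes) summed to between 1161 and 1812 RPKM except in wood duck, at 502 RPKM, and the sums ranged from 27.3 to 74.7 RPKM for endothelium (7 genes), 15.5 to 55.3 RPKM for macrophages (6 genes) and 46.9 to 216 RPKM for red blood cells (3 genes). The 4 skeletal muscle markers summed to 195 RPKM in black duck, 72.3 RPKM in harlequin duck and 65.3 RPKM in ruddy duck, against 6.42 to 19.7 RPKM in the other 4 species, and none of the 4 was at 0 in any species. Across the whole table ruddy duck differed from the rest of the ducks, with a lower level than their mean in 64.9% of the 12497 genes that averaged at least 1 RPKM over the species, the genes to which every comparison below is limited.

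Most of the cell cycle genes were read at low levels. Of the 32 genes, 18 reached 1 RPKM in every species, 14 were under 1 RPKM in at least 1 species, and 27 averaged at least 1 RPKM and entered the comparisons. CDC6, CHEK1, BIRC5, CENPE and MKI67 did not. All 27 genes compared stand in both the duck and the chicken annotation, as do CHEK1 and BIRC5, whereas CDC6, CENPE and MKI67 stand in the chicken annotation alone.

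**Figure D1:**
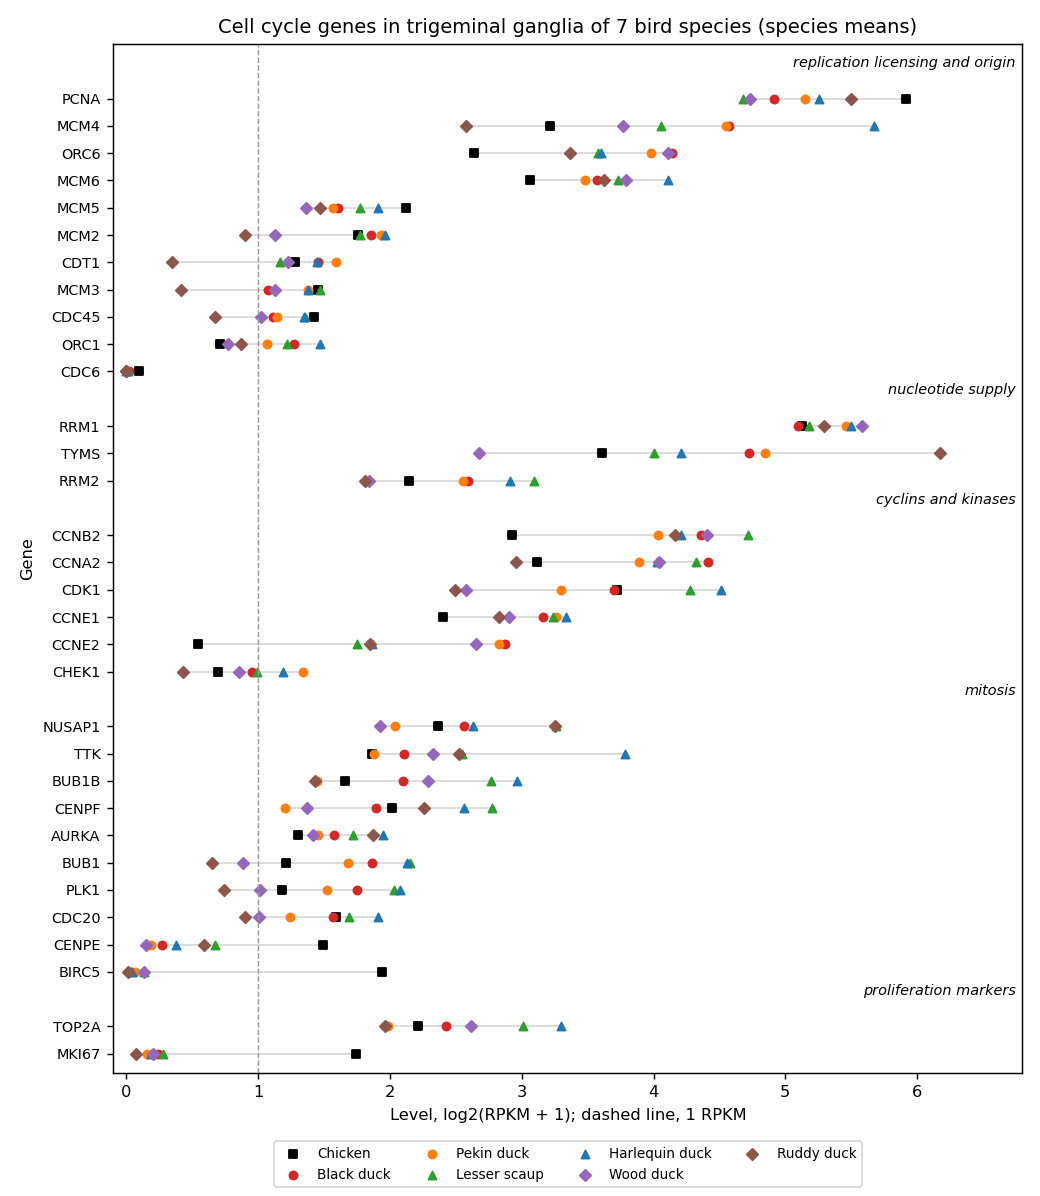
Level of each of the 32 cell cycle genes in each species, as log2(RPKM + 1) on the horizontal axis, with genes grouped by role and ordered by their mean. Each symbol is 1 species mean, the grey line spans the lowest to the highest species, and the dashed line marks 1 RPKM. PCNA and RRM1 lie highest in most species, whereas CDC6, CENPE, BIRC5 and MKI67 lie under 1 RPKM in all 6 ducks.

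The licensing genes are here those of the replication origins and helicase, with the clamp PCNA counted among them. The highest mean of this group belonged to PCNA (duck gene 101800931, chicken gene 373984), at 59.4 RPKM in chicken, 29.1 in black duck, 34.5 in Pekin duck, 24.6 in lesser scaup, 37.1 in harlequin duck, 25.5 in wood duck and 44.3 in ruddy duck. Chicken lay above every duck. MCM4, a subunit of the helicase, spread most among the ducks of the genes compared in this group, with 8.26 RPKM in chicken, 22.8 in black duck, 22.4 in Pekin duck, 15.6 in lesser scaup, 50.2 in harlequin duck, 12.7 in wood duck and 4.95 in ruddy duck. Its highest duck was 10.1 times its lowest. ORC6, a subunit of the origin recognition complex, measured 5.21 RPKM in chicken and 16.6, 14.8, 10.9, 11.1, 16.3 and 9.29 RPKM in black duck, Pekin duck, lesser scaup, harlequin duck, wood duck and ruddy duck, so that chicken lay below every duck.

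The other helicase subunits were lower and did not share a single order of species. MCM6 ran from 7.34 RPKM in chicken to 16.2 RPKM in harlequin duck, with 10.9, 10.1, 12.2, 12.8 and 11.4 RPKM in black duck, Pekin duck, lesser scaup, wood duck and ruddy duck. MCM5 had its highest level in chicken, at 3.35 RPKM, and measured 2.05, 1.96, 2.41, 2.75, 1.57 and 1.77 RPKM in the ducks from black duck to ruddy duck. MCM2 lay between 0.869 RPKM in ruddy duck and 2.89 RPKM in harlequin duck, and MCM3 between 0.333 RPKM in ruddy duck and 1.76 RPKM in lesser scaup. The helicase subunits assemble into a single ring, and their average levels per length ran from 1.33 RPKM for MCM3 to 19.5 RPKM for MCM4. CDT1, which brings the helicase to the origins, was at 1.43 RPKM in chicken and at 0.269 RPKM in ruddy duck, and the other 5 ducks lay between 1.25 and 2.01 RPKM. CDC45 and ORC1 averaged 1.25 and 1.11 RPKM. CDC45 was under 1 RPKM in ruddy duck alone (0.593 RPKM), and ORC1 in chicken (0.637 RPKM), wood duck (0.707 RPKM) and ruddy duck (0.831 RPKM).

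Of the 3 genes that supply nucleotides, RRM1, the large subunit of the reductase that makes deoxyribonucleotides, varied least of all 27 genes among the ducks. It measured 33.9 RPKM in chicken, 33.2 in black duck, 43.1 in Pekin duck, 35.3 in lesser scaup, 44.3 in harlequin duck, 46.9 in wood duck and 38.2 in ruddy duck, a ratio of 1.41 between the highest and the lowest duck. TYMS, thymidylate synthase (duck gene 101800920, chicken gene 421060), varied most, with 11.2 RPKM in chicken, 25.5 in black duck, 27.8 in Pekin duck, 15.0 in lesser scaup, 17.5 in harlequin duck, 5.39 in wood duck and 71.2 in ruddy duck. Its highest and lowest ducks were those with the longest incubations, and they differed by 13.2 times. RRM2, the small subunit of the reductase, was highest in lesser scaup, at 7.52 RPKM, and lowest in ruddy duck, at 2.503 RPKM.

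Of the cyclins among the cell cycle genes, all but CCNA2 were higher in all 6 ducks than in chicken, as were 35.9% of all genes. The cyclins of the wider lists described below were mixed. CCND2 and CCNG1 were lowest in chicken, whereas CCND1, CCNG2 and CCNH were not. CCNB3 and CCND3 were highest in chicken, at 2.09 and 4.59 RPKM, against at most 2.04 and 1.69 RPKM in the ducks. CCNB2, a B-type cyclin, was at 6.58 RPKM in chicken and at 19.6, 15.4, 25.3, 17.5, 20.2 and 17.0 RPKM in black duck, Pekin duck, lesser scaup, harlequin duck, wood duck and ruddy duck, with every duck above chicken. CCNE2 (duck gene 101792020, chicken gene 420231) had 0.457 RPKM in chicken and 6.34, 6.09, 2.37, 2.63, 5.30 and 2.61 RPKM in the same ducks. The related CCNE1 differed less, at 4.28 RPKM in chicken and 6.11 to 9.08 RPKM in the ducks. CCNA2 took 2 ranges of levels, with 7.66 RPKM in chicken and 6.76 RPKM in ruddy duck against 13.8 to 20.3 RPKM in the other 5 ducks. CDK1, the mitotic kinase, lay at 12.2 RPKM in chicken, 12.01 in black duck, 8.83 in Pekin duck, 18.4 in lesser scaup, 21.8 in harlequin duck, 4.97 in wood duck and 4.64 in ruddy duck. CHEK1, a checkpoint kinase for damaged or stalled DNA, averaged 0.929 RPKM, just under the minimum, with its lowest level in ruddy duck (0.347 RPKM) and its highest in Pekin duck (1.53 RPKM).

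The 8 mitosis genes compared were all low, and NUSAP1, a protein of the spindle microtubules, had the highest mean, at 5.32 RPKM. Its levels were 4.14 RPKM in chicken, 4.91 in black duck, 3.11 in Pekin duck, 8.60 in lesser scaup, 5.18 in harlequin duck, 2.80 in wood duck and 8.51 in ruddy duck. TTK, the kinase at the head of the spindle checkpoint, measured 2.65 RPKM in chicken, 3.30 in black duck, 2.67 in Pekin duck, 4.85 in lesser scaup, 12.8 in harlequin duck, 4.003 in wood duck and 4.76 in ruddy duck. Harlequin duck alone exceeded 5 RPKM. The checkpoint genes BUB1 and BUB1B ran from 0.566 to 3.45 RPKM and from 1.70 to 6.78 RPKM, with the lowest level of each in ruddy duck. PLK1 ranged from 0.671 to 3.216 RPKM, AURKA from 1.46 to 2.85 RPKM, CDC20, which starts the exit from mitosis, from 0.863 to 2.76 RPKM, and CENPF, a kinetochore protein, from 1.31 to 5.84 RPKM.

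TOP2A, the topoisomerase that untangles sister chromosomes and a common marker of dividing cells, was at 3.64 RPKM in chicken, 4.37 in black duck, 2.95 in Pekin duck, 7.06 in lesser scaup, 8.85 in harlequin duck, 5.12 in wood duck and 2.90 in ruddy duck. MKI67, the other common marker, reached 2.35 RPKM in chicken, and the ducks lay between 0.0535 and 0.214 RPKM. CENPE, a kinetochore motor, gave 1.81 RPKM in chicken and 0.109 to 0.595 RPKM in the ducks, and CDC6 gave 0.0704 RPKM in chicken and was listed at 0 in Pekin duck, harlequin duck, wood duck and ruddy duck. These 3 genes are those read from the chicken annotation alone. BIRC5 (survivin, of the complex that corrects chromosome attachment) showed the same difference, with 2.83 RPKM in chicken and 0.00978 to 0.0992 RPKM in the ducks, a ratio of 55.7 of chicken to the mean of the ducks, although it is marked as present in both annotations. Its duck gene 106017805 carries another name (LOC106017805) in the RefSeq annotation of a Pekin duck assembly of another build, where BIRC5 is gene 113843115. Of the 29 cell cycle genes with a duck gene identifier, 27 stood under the same symbol there, and the exceptions were BIRC5 and PCNA, whose symbol is given to gene 119713445. For CDC6, CENPE and MKI67, then, the duck values rest on the chicken gene model alone. BIRC5 and PCNA are listed with a duck gene identifier that did not carry the same symbol in that RefSeq annotation. Which genome supplied their duck values is not given in the sources used here. The part of this in the levels of CDC6, CENPE, MKI67, BIRC5 and PCNA was not tested.

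Next, the level of each gene was set against embryonic day to ask whether cell cycle RNA was lower in species with longer incubation. No cell cycle gene was related to embryonic day at an exact permutation p under 0.05 over the 7 species, neither upward nor downward, in 27 genes compared. Among all 12497 genes, 6.03% passed with a positive and 11.0% with a negative correlation, 17.0% in all. After Benjamini-Hochberg adjustment over all genes, 0% passed 0.05, with 2125 genes at an unadjusted exact permutation p under 0.05, and the lowest adjusted p was 0.106. Between them, the 7 species allow 5040 assignments of the days, and the smallest exact p they can give is 0.000397 because lesser scaup and Pekin duck share their days. The median Pearson r of the 27 genes was 0.09, beside a median of -0.01 over all genes, with 15 genes above 0 and 12 below. Over the 9909 genes in both annotations, as all 27 are, the median r was 0.04 and 15.6% passed unadjusted. By rank correlation, 0 of the 27 genes and 14.1% of all genes passed. Without black duck, whose days are in doubt, 0 of the 27 genes passed and their median r was 0.18, beside 0.07 over all genes.

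RRM1 had the lowest p of the list, by rank together with CDC45 (RRM1: r = 0.71, Spearman rho = 0.72, exact permutation p = 0.0861 and 0.077, adjusted p = 0.356 and 0.425). Without the 2 species farthest from the median day, chicken and ruddy duck, the r of RRM1 was 0.88. MCM6 followed by the p of Pearson's r (r = 0.68, rho = 0.67, exact permutation p = 0.0933 and 0.117, adjusted p = 0.368 and 0.511), with an r of 0.64 without chicken and ruddy duck. The most negative Pearson correlation was that of MCM5 (r = -0.60, rho = -0.68, exact permutation p = 0.157 and 0.1, adjusted p = 0.453 and 0.481), and it was -0.02 without those 2 species. By rank, CDC45 was the most negative (r = -0.58, rho = -0.72, exact permutation p = 0.171 and 0.077, adjusted p = 0.47 and 0.425), with an r of 0.07 without them. Leaving out 1 species at a time brought 3 genes under an exact permutation p of 0.05: MCM5 without harlequin duck (r = -0.78, p = 0.0472), AURKA without wood duck (r = 0.85, p = 0.0361) and RRM1 without ruddy duck (r = 0.89, p = 0.0111).

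**Figure D2:**
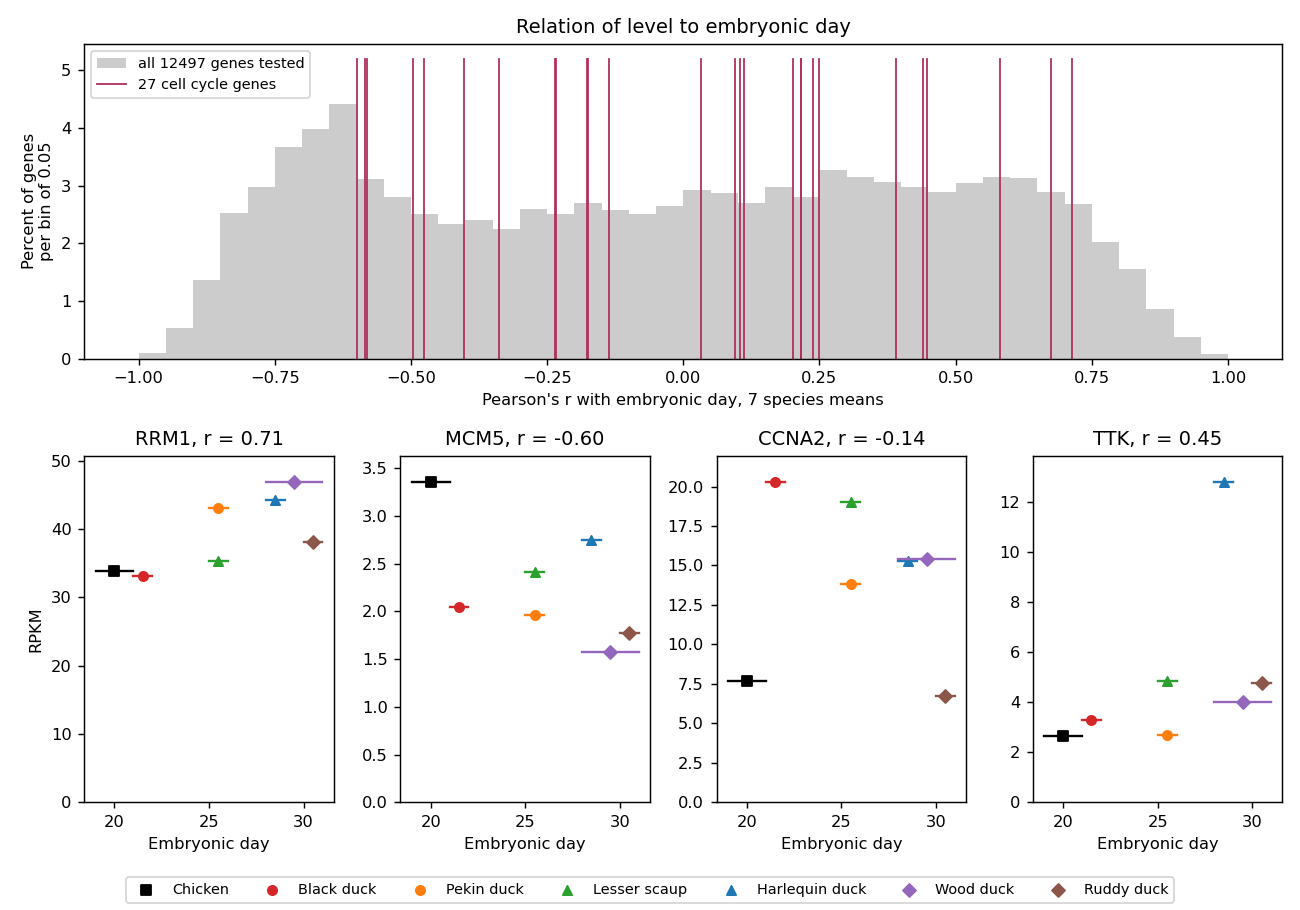
Relation of level to embryonic day. The upper panel shows Pearson's r over the 7 species means for all 12497 genes (grey histogram, percent of genes per bin) and for the 27 cell cycle genes (red lines, whose height has no meaning). The lower panels plot RPKM against embryonic day for RRM1, MCM5, CCNA2 and TTK, with each symbol at the middle of the labelled days and the bar across their range. The red lines reach from -0.60 to 0.71, and none lies beyond these values.

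Within the 6 ducks, again no cell cycle gene passed an exact permutation p of 0.05, compared with 7.11% of all genes. The median r was -0.29, beside -0.18 over all genes, and 17 of the 27 genes had a negative value. CCNA2 had the lowest exact permutation p (r = -0.76, rho = -0.70, p = 0.0722 and 0.133), from 20.3 RPKM in black duck down to 6.76 RPKM in ruddy duck, with lesser scaup above Pekin duck at the same days. Over all 7 species its r was -0.14, with chicken, the species of the earliest days, at 7.66 RPKM.

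The mitosis genes shared a pair of species with high levels. Among the ducks, each of the 8 mitosis genes had its highest level in harlequin duck (5 genes) or lesser scaup (3 genes), and so did TOP2A and CDK1. Of all 27 cell cycle genes, 20 were highest in 1 of these 2 ducks, 13 in harlequin duck and 7 in lesser scaup, beside 36.2% of all genes. The exceptions were ORC6, CDT1, PCNA, RRM1, TYMS, CCNE2 and CCNA2. At the other end, 20 of the 27 genes were lowest in wood duck or ruddy duck, near the 62.4% of all genes for which this held. The choice of harlequin duck and lesser scaup was made after the values were seen, and no test was made of it.

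Relative to the mean of the 6 ducks, on the log2(RPKM + 1) scale, the median of the 8 mitosis genes was -0.40 in chicken, -0.12 in black duck, -0.44 in Pekin duck, 0.46 in lesser scaup, 0.47 in harlequin duck, -0.51 in wood duck and -0.34 in ruddy duck. Lesser scaup and Pekin duck, which have the same labelled days, thus lay on opposite sides. Summed, the 8 genes came to 36.2 RPKM in lesser scaup and 41.9 RPKM in harlequin duck, compared with 15.998 to 23.5 RPKM in the other 5 species. The 36 other mitotic genes of a wider list (motors, condensins, kinetochore proteins and regulators) had a median of 0.33 in lesser scaup and 0.22 in harlequin duck, and between -0.30 and -0.05 in the other species, and 27 of the 36 were highest among the ducks in lesser scaup or harlequin duck. Securin (PTTG1), which holds back the separation of chromosomes, had the largest level of these in lesser scaup, at 69.1 RPKM, with 28.6 RPKM in harlequin duck, 26.7 RPKM in wood duck and 2.77 to 8.80 RPKM in the other 4 species. The checkpoint genes BUB3 and MAD2L1 went another way and were highest in ruddy duck, at 56.8 and 23.4 RPKM.

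**Figure D3:**
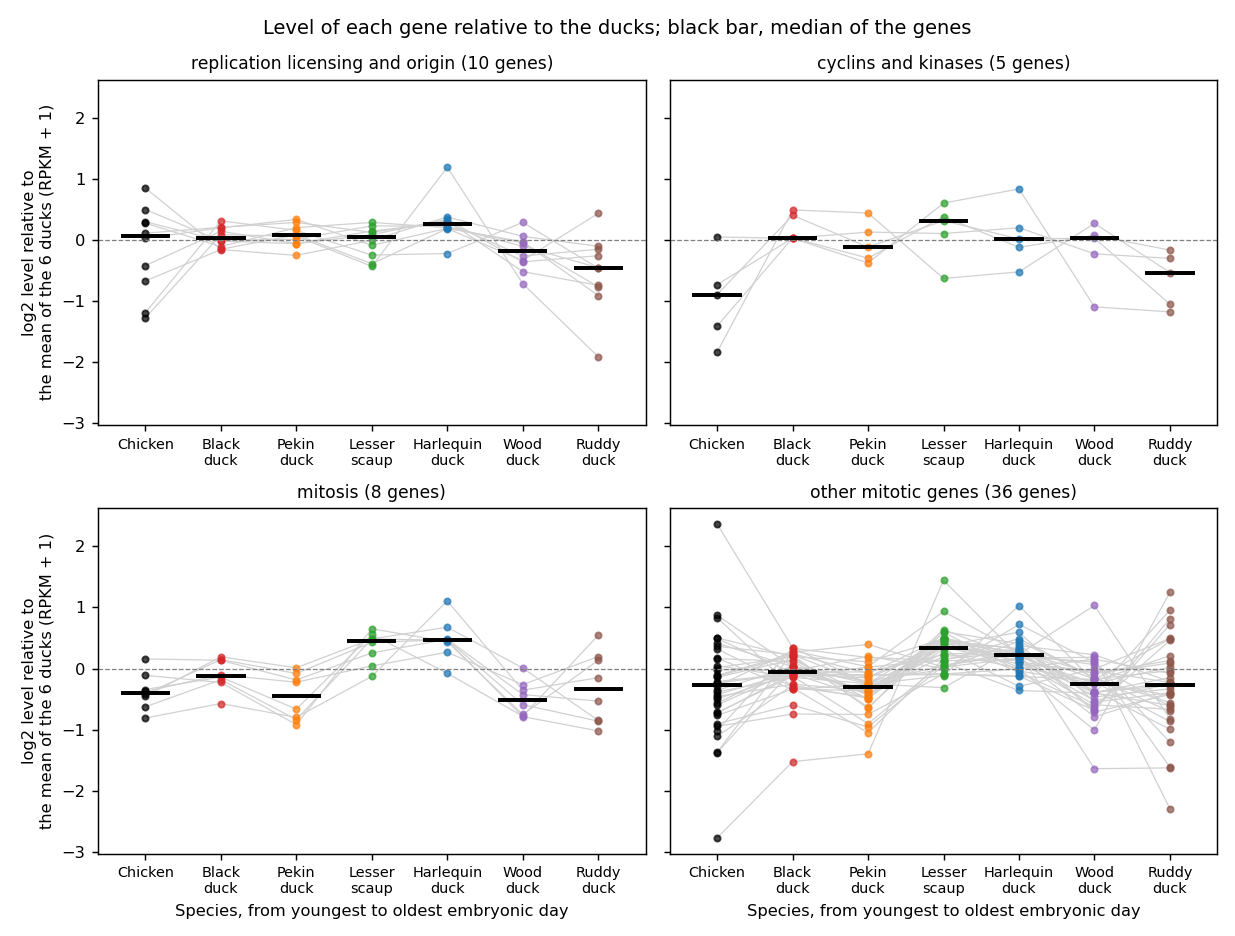
Level of each gene in each species relative to the mean of the 6 ducks, as a log2 ratio of RPKM + 1, for 3 groups of the cell cycle genes and for the wider list of other mitotic genes. Points are genes, grey lines join the same gene, and the black bars are medians. The bars of the mitosis genes are highest in lesser scaup (0.46) and harlequin duck (0.47), and the licensing genes have no such step in lesser scaup.

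Across the 6 ducks, the log2 levels of all 28 pairs of mitosis genes had a positive correlation, with a median r of 0.57. The median was 0.49 over the 45 pairs of licensing genes, of which 36 were positive, and 0.34 over the 10 pairs of cyclins and kinases. It was 0.35 over the 351 pairs of the 27 genes and 0.07 over all pairs of genes. Of all pairs of genes, 53.7% were positive over the 6 ducks. Over all 7 species the cyclins and kinases had a higher median (0.64) than the mitosis genes (0.51). These are descriptions over 6 species means, and genes of the same species share its libraries. MCM5 (r = 0.94) and CDK1 (r = 0.90) followed the mean of the mitosis genes most closely outside their group, whereas CCNE2 (r = -0.65) and ORC6 (r = -0.45) ran opposite to it. The 3 nucleotide supply genes had 0 positive pairs of 3. With the species scaled to the same median ratio, 18 of 27 cell cycle genes and 6 of 8 mitosis genes were still highest in harlequin duck or lesser scaup, beside 29.8% of all genes, and AURKA and NUSAP1 were then highest in ruddy duck. Of the other mitotic genes that averaged at least 5 RPKM, 4 of 11 were highest in these ducks, near the 34.9% of all genes at that level. Red blood cell markers summed to 216 RPKM in lesser scaup and in ruddy duck, their highest sums, and to 95.2 RPKM in harlequin duck. In lesser scaup and harlequin duck, muscle markers summed to 10.4 and 72.3 RPKM, fibroblast markers to 1229 and 1205 RPKM, and glial markers to 2620 and 2624 RPKM. Such sums are set mostly by the genes of highest level, and single markers can differ from them. Relative to the duck mean on the log2(RPKM + 1) scale, the glial markers had medians of 0.18 and -0.10 in these 2 ducks. The fibroblast markers had medians of 0.16 and 0.13. The part of cell types in the levels of the mitosis genes in these ducks was not tested.

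Ducks were then compared with chicken, which pecks by sight and does not forage by touch. On the log2(RPKM + 1) scale, the mean of the 6 ducks was at least 2-fold above chicken in 5 of the 27 cell cycle genes (CCNE2, CCNB2, MCM4, TYMS and ORC6), beside 20.3% of all genes. It was at least 2-fold below chicken in none of the 27, beside 12.1% of all genes. The minimum is a mean over 7 species, 6 of them ducks, so a gene high in chicken alone can fall under it. BIRC5, MKI67 and CENPE, left out by the minimum, were lower in the ducks by more than 2-fold (log2 -1.87, -1.56 and -1.10). CDC6 and CHEK1, also left out, were not (-0.09 and 0.29). The median log2 ratio was 0.42 for the cell cycle genes and 0.22 for all genes. With the species scaled to the same median ratio, these medians became 0.25 and 0.04, and PCNA passed 2-fold below chicken. All 27 genes are in both annotations, and the 9909 genes in both had an unscaled median of 0.26. Of these 9909 genes, 19.1% were at least 2-fold above chicken in the ducks and 8.14% at least 2-fold below.

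CCNE2 had the largest ratio, with a log2 value of 1.84, followed by CCNB2 at 1.41, MCM4 at 1.28, TYMS at 1.20 and ORC6 at 1.19. MCM4 rested on harlequin duck and TYMS on ruddy duck, since without these their log2 ratios were 0.85 and 0.66. PCNA had the lowest ratio, at -0.85, followed by MCM5 at -0.50. Chicken lay below every duck in 8 of the 27 genes (ORC1, ORC6, MCM6, CCNE1, CCNE2, CCNB2, AURKA and TTK), beside 35.9% of all genes. It lay above every duck in 3 (PCNA, MCM5 and CDC45), beside 26.0% of all genes. Neither share was above that of all genes. Of the 9909 genes in both annotations, chicken lay below every duck in 3703 and above every duck in 2162. Chicken is a single species, so species and embryonic day cannot be told apart in this comparison. For genes in both annotations, which all 27 are, the sources used here do not give which genome supplied the values of which species, and its part in these ratios was not tested.

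**Figure D4:**
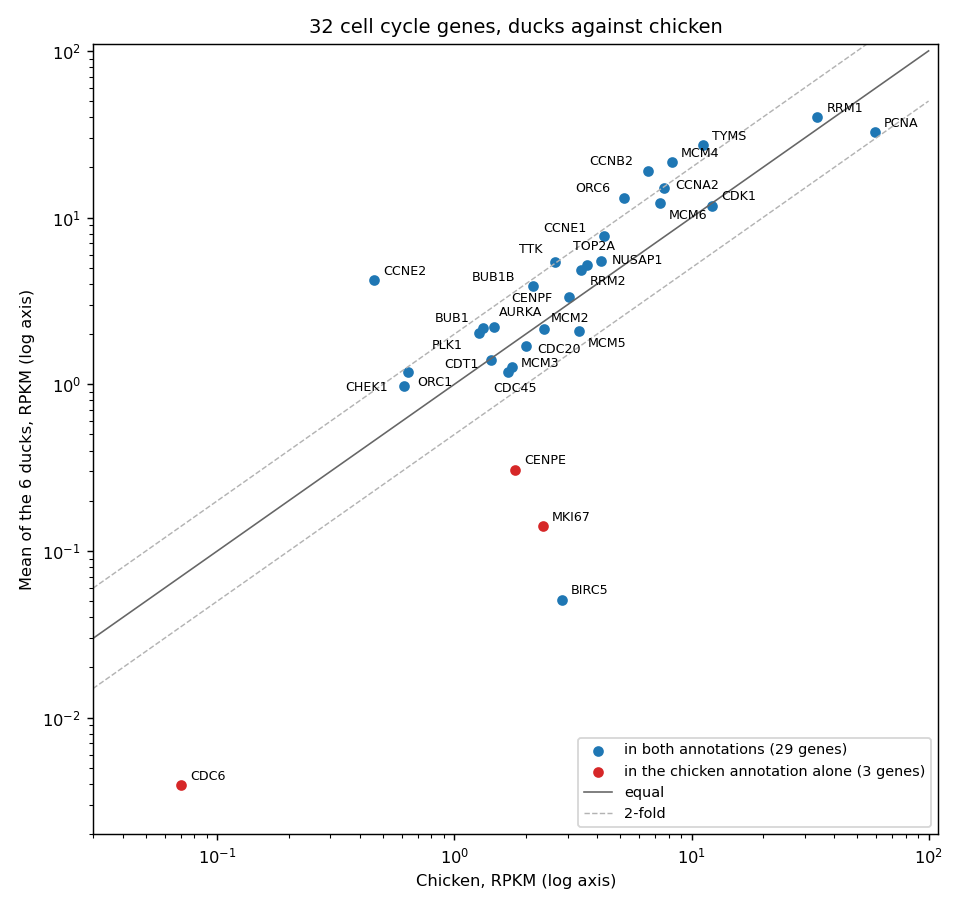
Mean of the 6 ducks against chicken for the 32 cell cycle genes, both in RPKM on log axes. The solid line marks equal levels and the dashed lines a 2-fold difference of the RPKM values themselves. CCNE2 lies far above the lines (0.457 RPKM in chicken, 4.22 RPKM in the ducks), and BIRC5 and the 3 genes of the chicken annotation alone lie far below them.

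Black duck and Pekin duck belong to the same genus and differ in their labelled days. By the study's text they also differ in that Pekin duck is domesticated and its eggs came from a farm. The black duck eggs came from a wildlife research center. Species, domestication, egg source and days cannot be told apart in this comparison. Black duck, with the earlier labelled days, had the higher level in 19 of the 27 cell cycle genes, beside 49.3% of all genes, and in all 8 mitosis genes. On the log2(RPKM + 1) scale no cell cycle gene differed by 2-fold in either direction, beside 0.408% of all genes at least 2-fold higher and 0.760% at least 2-fold lower in black duck. The added 1 RPKM decided this for CENPF, whose RPKM values differed by 2.08 times and which passed 2-fold with a pseudocount of 0.1. The median log2 ratio was 0.12 for the 27 genes, 0.27 for the mitosis genes and -0.00 for all genes, whose quartiles were -0.14 and 0.13. CENPF had the largest ratio, with 2.72 RPKM in black duck and 1.31 RPKM in Pekin duck (log2 0.69), followed by BUB1B (0.65), NUSAP1 (0.53) and CCNA2 (0.52). RRM1 had the lowest, with 33.2 and 43.1 RPKM (log2 -0.37).

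Of the 36 other mitotic genes 30 were higher in black duck, and of the 33 other replication genes 17. The licensing genes were divided, with 5 of 10 higher in black duck and a median of -0.00. Skeletal muscle markers moved with this comparison: all 4 were at least 2-fold higher in black duck, with 195 RPKM in sum against 11.0 RPKM in Pekin duck. The macrophage markers were lower in black duck in all 6 genes (median log2 -0.41) and the red blood cell markers in all 3 (-0.80), while the endothelial markers were higher in 6 of 7 (0.11) and the fibroblast markers in 4 of 6 (0.19). Markers of neurons and of glia were split, with 6 of 10 and 5 of 9 higher in black duck (medians of 0.01 and 0.09). The part of these markers in the levels of the mitosis genes was not tested.

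**Figure D5:**
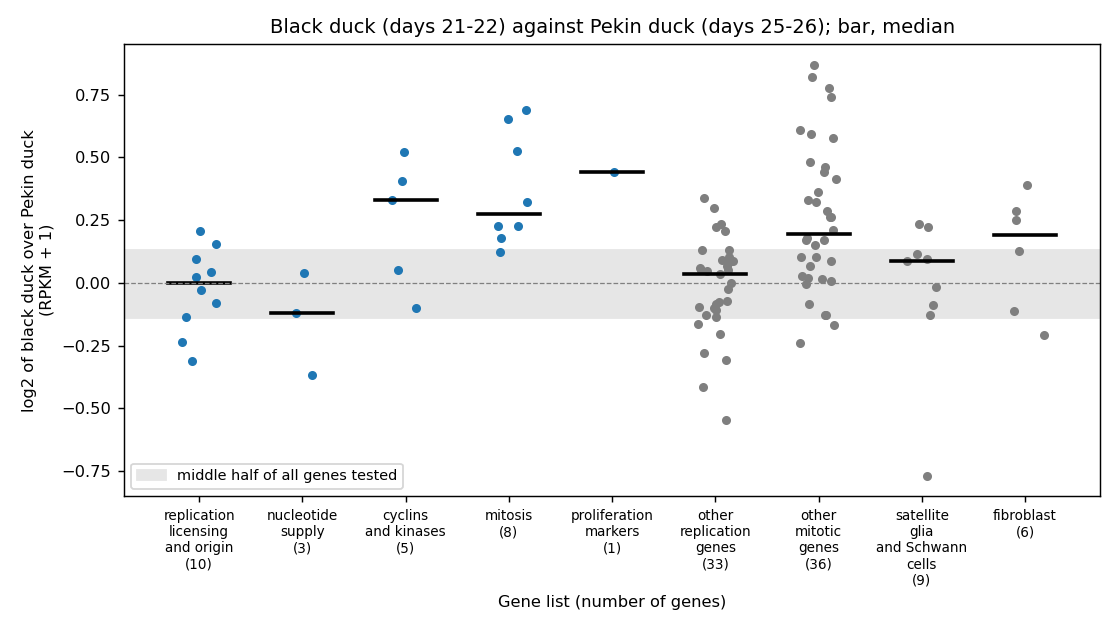
Log2 ratio of black duck to Pekin duck (RPKM + 1) for each gene, by list, with cell cycle genes in blue and the comparison lists in grey. Bars are medians and the grey band spans the quartiles of all genes (-0.14 to 0.13). All 8 mitosis genes lie above 0, whereas the 10 licensing genes lie on both sides.

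Ruddy duck had the latest days and was compared with the mean of the other 5 ducks. Its level was lower in 22 of the 27 cell cycle genes, beside the 64.9% of all genes given above. It was at least 2-fold lower in 5 (MCM4, CDK1, CCNA2, BUB1 and CDT1), near the 17.0% of all genes. TYMS alone was at least 2-fold higher, beside 4.76% of all genes. The median log2 ratio was -0.54 for the cell cycle genes and -0.27 for all genes, and with the species scaled to the same median ratio these were -0.43 and -0.08, with 3 of the 27 genes still 2-fold lower. The count depends on the pseudocount: with 0.1 RPKM in place of 1, 12 of the 27 genes were at least 2-fold lower, beside 24.5% of all genes. Cell type markers moved with ruddy duck too, and their part was not tested: those of glia and Schwann cells were lower in 7 of 9 genes (median log2 -0.90, 4 of them by 2-fold), those of endothelium higher in 5 of 7 (0.55), of macrophages in 5 of 6 (0.31) and of red blood cells in all 3 (1.14).

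MCM4 had the lowest ratio, with a log2 value of -2.11, followed by CDK1 at -1.33, CCNA2 at -1.20, BUB1 at -1.16 and CDT1 at -1.04. CDT1 lost its 2-fold difference without Pekin duck (-0.98). After scaling, CCNA2 (-0.99) and CDT1 (-0.96) were the genes that no longer reached 2-fold. Against these stood TYMS at 1.91, NUSAP1 at 0.68 and PCNA at 0.54. MCM3, PLK1, MCM2 and CDC20 were under 1 RPKM in ruddy duck as well, and at such levels the added 1 RPKM makes the log2 ratio smaller than that of the RPKM values. In wood duck, whose days overlap with those of ruddy duck, TYMS had its lowest level of all species, and MCM4 and CCNA2 were at 12.7 and 15.4 RPKM.

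The wider lists of cell cycle genes were set against embryonic day in the same way, beside the 6.03% (positive) and 11.0% (negative) of all genes that passed. Of the 33 other replication genes compared, 3 passed an exact permutation p of 0.05 with a positive correlation and 1 with a negative one. The positive ones were RFC3, a loader of PCNA (r = 0.78), geminin (GMNN), the inhibitor of CDT1 (r = 0.77), and DBF4, a partner of the kinase that fires origins (r = 0.73), and without chicken and ruddy duck their r was 0.30, 0.35 and 0.83. DNMT1, which copies DNA methylation at the fork, was the negative one (r = -0.83, and -0.76 without those 2 species). Of the 36 other mitotic genes, 0 passed with a positive correlation and 2 with a negative one, the motors KIF11 (r = -0.79, and -0.58 without those 2 species) and KIF23 (r = -0.73, and -0.59). Geminin was at 4.78 RPKM in chicken, 13.7 in black duck, 11.0 in Pekin duck, 16.1 in lesser scaup, 19.5 in harlequin duck, 13.8 in wood duck and 28.5 in ruddy duck.

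Of 13 transcription factors of the cell cycle, E2F6, TFDP1 and LIN9 passed with a positive correlation (r = 0.83, 0.87 and 0.84) and TFDP2 with a negative one (r = -0.84), 4 of 13 beside 17.0% of all genes. Without chicken and ruddy duck their r was 0.83, 0.67, 0.63 and -0.53. E2F1, E2F2 and FOXM1, which drive the replication and mitosis genes, averaged under 1 RPKM and were not compared. Of 9 further cyclins and kinases, among them the D cyclins, CCNG1, CCNG2 and CCNH, CCND3 passed (r = -0.69). Its r was 0.04 without chicken and ruddy duck. CCND1, cyclin D1, lay between 15.8 and 32.5 RPKM. Of 15 inhibitors and genes of cell cycle exit, RBL1 (r = 0.75), GADD45A (r = -0.72) and FZR1 (r = -0.79), an activator of the complex that destroys mitotic cyclins, passed, 3 of 15 beside 17.0% of all genes. Without chicken and ruddy duck their r was 0.06, -0.37 and -0.49. The exact permutation p of all these genes lay between 0.00595 and 0.0397 and their adjusted p between 0.160 and 0.272. By rank correlation 3 replication genes, 3 mitotic genes, 5 transcription factors, 0 of the further cyclins and kinases and 2 of the inhibitor list passed unadjusted, beside 14.1% of all genes. The inhibitor CDKN1B (p27) was at 9.89 RPKM in chicken and at 37.2 to 92.1 RPKM in the ducks, highest in ruddy duck, without passing the test (r = 0.72, rho = 0.67, exact permutation p = 0.0671 and 0.117, adjusted p = 0.325 and 0.511), and its r was -0.03 without chicken and ruddy duck. CDKN1C (p57) was higher in chicken, at 85.6 RPKM, than in the ducks, at 3.29 to 34.8 RPKM. Among the ducks it too was highest in ruddy duck. Its r was -0.42 over the 7 species and 0.57 without chicken and ruddy duck. CDKN1C is one of the genes read from the chicken annotation alone.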

How the data were processed

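RNA of trigeminal ganglia from 21 embryos of 7 bird species (3 birds each) was sequenced by the authors on a strand-specific poly(A) protocol. By the study's methods and the notes of the submitters, reads were trimmed (Trimmomatic 0.36), each sample was aligned to the duck (BGI_duck_1.0) as well as the chicken (GRCg6a) genome (STAR 2.5.4b), reads were assigned to annotated coding genes (featureCounts, Subread 1.6.2) and counts were turned into RPKM (edgeR 3.22.3). The deposited RPKM values, made by the authors and scaled to gene length and mapped reads, are joined by gene symbol and averaged over the 3 birds of a species, so the table has 1 value per gene and species. The depth and spread of single birds are therefore unknown here, no test over birds or interval for a level could be had, and the labels do not say which libraries shared a lane. Duck reads on a chicken gene model, or gene models of unequal completeness, can lower a level, and this was not tested.

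With Python 3.11.15, numpy 2.4.6, pandas 2.3.3, scipy 1.17.1 and matplotlib 3.10.9, Pearson's r and Spearman's rho of the RPKM values with the middle of the labelled days were computed for the 12497 genes that averaged 1 RPKM or more, with two-sided exact permutation tests over all 5040 (7 species) or 720 (6 ducks) assignments and Benjamini-Hochberg adjustment over all genes. The species share ancestry, which the permutation does not take into account. Ratios between species carry no test. They are log2 ratios with a pseudocount of 1 RPKM, and 2-fold was the threshold. The correlation with embryonic day, but not the ratios, was tried on simulated data. The simulated noise was independent for each gene and species, so it held no shared ancestry. Genes were named by a rule: all members may be named, with values in each species for those of highest mean in each role, the extremes of each comparison and those under 1 RPKM, and, from each wider list, up to 6 genes of highest mean or lowest p. The cell cycle genes, the wider lists and the cell type markers were chosen with earlier results of these data known. The choice of harlequin duck and lesser scaup, the counts higher in black duck, and their alternatives were made after seeing the values, as was the limit of 0.1 by which a value was said to move. Names were checked against the RefSeq annotation of the Pekin duck assembly IASCAAS_PekinDuck_T2T, which is another build, so no coordinates are given. Promoter motifs and sequences were not analysed here.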

Additional observations from a re-analysis of the deposited data

Results flagged for a closer look

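In each of the 27 cell cycle genes compared, the highest and the lowest of the 6 ducks were set against the other ducks by Dixon's ratio, the gap to the nearest duck divided by the whole range. With 27 genes examined, chance alone sets a duck apart in about 1 gene in 20, and 2 genes had such a duck. TTK in harlequin duck, at 12.8 RPKM, stood apart from lesser scaup at 4.85 RPKM, with a ratio of 0.785. TYMS in ruddy duck, at 71.2 RPKM, stood apart from Pekin duck at 27.8 RPKM, with a ratio of 0.660. Each value is a mean over 3 birds, and whether all 3 shared it is unknown here.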

How the results depend on the processing

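No paired analysis was possible because the table holds 1 mean per species and no values of single birds, and for the same reason no bird could be left out. Correlations of single cell cycle genes with embryonic day were recomputed under alternatives, 444 in all, and some of these repeat the same computation. The 6 ducks alone are the 7 species without chicken, and a limit on level or annotation leaves the correlation of a gene unchanged. Of the 444, 4 had an exact permutation p under 0.05: the 3 genes named above when a species was left out, and MCM6 with the species scaled to the same median ratio (r = 0.80, p = 0.0337). The number of cell cycle genes related to day was 0, and became 1 with that scaling, 2 without the minimum of 1 RPKM (CDC6 and MKI67, which are read from the chicken annotation alone) and 0 to 1 when a species was left out. Their median r of 0.09 became -0.036 by rank, -0.29 in the 6 ducks, -0.081 without chicken and ruddy duck, -0.10 without the minimum, 0.24 with a minimum of 5 RPKM (12 genes), and -0.29 to 0.18 without single species. Against chicken, the median log2 ratio of the ducks was 0.55 with a pseudocount of 0.1, 0.25 with scaling, 0.77 with the minimum of 5 RPKM and 0.32 to 0.51 without single ducks. The genes 2-fold lower in ducks numbered 1 with scaling, beside 15.1% of all genes. For ruddy duck the median was -0.78 with a pseudocount of 0.1, -0.43 with scaling, -0.19 with the minimum of 5 RPKM and -0.57 to -0.50 without single ducks, and the genes 2-fold lower numbered 12, 3, 3 and 5 to 6. Among all genes, scaling changed the 2-fold higher and lower genes in ducks against chicken from 2533 and 1511 to 2072 and 1891, and in ruddy duck from 595 and 2130 to 942 and 1501. With the minimum of 5 RPKM, 8 of 12 cell cycle genes and 2 of 2 mitosis genes were higher in black duck than in Pekin duck, beside 51.2% of all genes. At that minimum 7 of 12 and 2 of 2 were highest in harlequin duck or lesser scaup, the number of genes being smaller by construction. Of the 36 other mitotic genes, 11 passed that minimum and 4 of these were highest in harlequin duck or lesser scaup, beside 34.9% of all genes at that minimum. With a pseudocount of 0.1, 1 cell cycle gene (CENPF) was at least 2-fold higher in black duck than in Pekin duck, and 12 of 27 were 2-fold lower in ruddy duck, beside 24.5% of all genes.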
